A study of Mus musculus with 6 samples.

Results

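The nuclear genes for the subunits of respiratory chain complexes III, IV and V were described in the hearts of wild type mice and of mice with the R193H mutation in cardiac troponin I (cTnI). Members were chosen by name: every symbol in the count table that begins with Uqcr, with Atp5 or with Cox and a digit from 4 to 8, together with Cyc1 and Cycs. Symbols containing -ps, which mark pseudogenes and numbered 4, were left out. The rule found 45 symbols among the 44792 of the table (23755 with at least 1 count). Complex III holds 9 of the members, complex IV 18, complex V 17, and Cycs encodes cytochrome c, the carrier between complexes III and IV. Atp5s and Atp5sl fall under the rule by name, although they encode proteins now called Dmac2l and Dmac2 that are not structural subunits of ATP synthase.

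RNA was sequenced from the hearts of 6 untreated C57BL/6 mice at 3 months of age, 3 of them wild type and 3 carrying cTnI R193H. cTnI is the inhibitory subunit of troponin on the thin filament of heart muscle and is encoded by Tnni3. The labels do not state whether the mutation sits on 1 or both copies of Tnni3, how the allele was made, or which chambers were taken. Each heart gave 1 library, with 14736067 to 21852210 counts, and the series design names the hearts of a group as biological repeats. Levels are given in CPM, counts relative to library totals scaled by the trimmed mean of M values (TMM), and levels of different genes are compared per kb of transcript. Shares within a set of isoforms are given in counts, for the comparison of the genotypes, with the share per kb beside them.

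Tnni3 itself measured 3202, 3466 and 3282 CPM in wild type hearts and 3900, 3641 and 3703 CPM in R193H hearts, and counts per gene do not show the substituted base. The markers listed for ventricular cardiomyocytes were Tnni3 itself, Myh6, Tnnt2, Actc1, Myl2, Myl3, Ttn, Mybpc3, Pln and Ryr2. They summed to 51626 to 54581 CPM in wild type and 45724 to 50939 CPM in R193H hearts. The label of heart tissue thus held in every library. Of these 10 markers, 8 had lower means in R193H hearts, with a median log2 fold change of -0.14, and 0 passed the test over all genes. The lower means numbered 6 with library totals (median -0.017) and 7 without R193H replicate 2 (median -0.065). All 8 macrophage markers had higher means, with summed levels of 157 to 187 CPM against 199 to 275 CPM, and had them without R193H replicate 2 as well. The 8 fibroblast markers had higher means too, at 1312 to 1552 CPM against 1409, 2202 and 1443 CPM, but this rested on R193H replicate 2, without which 7 of 8 had lower means. Atrial markers summed to 87.1 to 730.2 CPM in wild type and 148 to 307 CPM in R193H hearts, and wild type replicate 1 was the highest. Brown adipocyte markers, from a tissue rich in mitochondria, summed to 417 to 632 CPM against 523 to 567 CPM. Most of that sum was Fabp4, a gene of endothelial cells too. Over all hearts Ppargc1b measured 45.6 to 55.5 CPM and Cidea 15.8 to 21.3 CPM. Adipoq reached 4.06 CPM, Plin1 3.39 CPM, Ucp1 0.426 CPM and Zic1 0.186 CPM, while Elovl3 was at 0 in every heart. Skeletal muscle markers summed to 1951 to 2100.1 CPM against 1715 to 1995 CPM, nearly all of it from Ckm and Acta1, which heart muscle also expresses, with Myh4 at 0 in every heart. Endothelial markers summed to 1244 to 1456 CPM against 1299.7 to 1533 CPM, pericyte and smooth muscle markers to 761 to 962 CPM against 735 to 967 CPM, and erythroid markers to 257 to 3095 CPM against 476 to 630.0 CPM. Testis markers, for the tissue of several isoforms among the members, summed to 0 to 0.0606 CPM. In bulk tissue, fewer cells of a type and less RNA per cell cannot be told apart, and the part of these marker levels in the results on the members was not tested.

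Complex III takes electrons from ubiquinol and passes them to cytochrome c, and complex IV passes them from cytochrome c to oxygen. Both pump protons out of the mitochondrial matrix, and complex V, the ATP synthase, lets protons back through its membrane sector Fo to drive ATP synthesis in its F1 head. Each complex combines nuclear-encoded subunits with a few encoded by mitochondrial DNA, and heart muscle, which works mainly on oxidative metabolism, is rich in all of them. Several complex IV subunits come in isoforms from separate genes, among them forms of heart and skeletal muscle, and some subunits help the complexes to assemble into supercomplexes.

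No member rose or fell in R193H hearts past the threshold over all genes. Of the 43 members tested, 32 had lower and 11 higher means in R193H hearts, and the median log2 fold change was -0.068. Over all 14370 genes tested, 50.1% had a lower log2 fold change and the median was -0.00036. By edgeR's quasi-likelihood test with Benjamini-Hochberg adjustment at 0.05, 0 of 43 members were called, beside 1 gene of all tested (0.00696%). At an unadjusted p under 0.05 there was 1 member, Cox7c, beside 5.73% of all genes. DESeq2 called 0 members (0.339% of the 12693 genes with an adjusted p), limma-voom called 0 (0.00696% of all genes), and edgeR with no minimum count called 0 (0.16% of 23755 genes).

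The differences were small and most were measured closely. The 95% interval of the fold change lay within 1.5-fold in either direction for 40 of the 43 members, and within 1.25-fold for 36. The exceptions at 1.5-fold were Cox7c, Atp5g2 and Cox6b2. SEs of the log2 fold change ran from 0.073 to 0.73 with a median of 0.082, and 42 intervals included 0. The median coefficient of variation between hearts of a group was 4.46% in wild type and 4.91% in R193H hearts. A p above the threshold does not show that levels were equal.

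**Figure D1:**
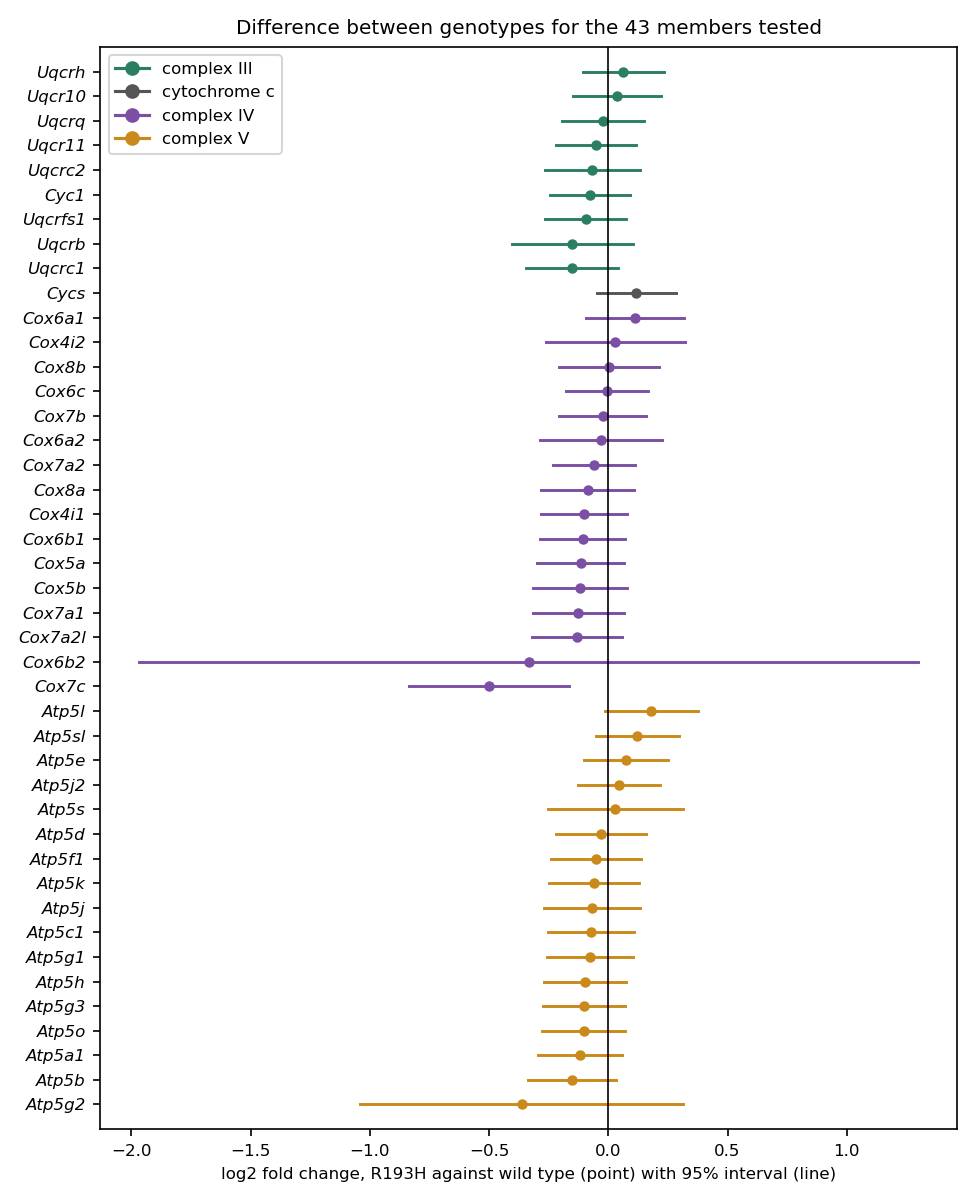
Log2 fold change of each of the 43 members tested, R193H against wild type (point), with its 95% interval (line), ordered within each complex. All intervals except that of Cox7c include 0, and those of Cox6b2 and Atp5g2, the lowest in level, are the widest.

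For 11 members every R193H heart lay below every wild type heart, which is 25.6% of those tested, beside 5.8% of all genes. They were Cyc1 and Uqcrfs1 of complex III, Cox4i1, Cox5a, Cox6b1 and Cox7c of complex IV, and Atp5a1, Atp5b, Atp5g3, Atp5o and Atp5h of complex V. For 3 members (6.98%), Cycs, Atp5l and Atp5sl, every R193H heart lay above every wild type heart, beside 6.02% of all genes. Without R193H replicate 2 the counts were 12 lower and 5 higher, beside 10.7% of all genes in each direction. These counts follow the scaling: with plain library totals, 0 members lay wholly lower and 9 wholly higher, beside 1.36% and 16.5% of all genes. That scaling moved the median of all genes to 0.13 and that of the members to 0.054 on the log2 scale, with 8 of 43 below 0, so 24 members turned to the higher side. Under either scaling, 32 of the 43 members lay below the median of all genes. A change of scaling moves all genes nearly alike, so this count could hardly differ between the scalings. With TMM it was 29 without R193H replicate 2 and 34 without R193H replicate 3.

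Summed over all 45 members, the level was 18442, 19469 and 18901 CPM in wild type and 17682, 17581 and 18181 CPM in R193H hearts, without overlap. As a percentage of the summed ventricular markers, it was 34.8%, 35.7% and 36.6% in wild type and 35.7%, 38.4% and 35.7% in R193H hearts. On that measure the groups overlapped, and R193H replicate 2 was the highest. The markers include Tnni3, which was higher in every R193H heart than in any wild type heart. In wild type hearts the members took 1.81% ± 0.0418 of all counts, and in R193H hearts 1.86% ± 0.0891 (SD, n = 3 each). Of the counts not encoded by mitochondrial DNA they took 2.87% ± 0.0693 and 2.81% ± 0.0326. Both pairs of shares overlapped between the groups.

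R193H replicate 2 was the lowest heart for 17 of the 43 members, and wild type replicate 2 the highest for 18. R193H replicate 2 was also the lowest heart for 23.9% of all genes tested. The median deviation of the members from the wild type mean was -0.032, 0.034 and 0.0061 on the log2 scale in wild type replicates 1, 2 and 3, and -0.058, -0.089 and -0.024 in R193H replicates 1, 2 and 3. The share of mitochondrially encoded counts was 30.9% in R193H replicate 2 and 35.2% to 36.8% in the other 5 hearts, and the summed fibroblast markers were highest there. Without it, 29 of 43 members had lower means and their median was -0.050. Whether this heart's other differences bear on its low values was not tested.

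**Figure D2:**
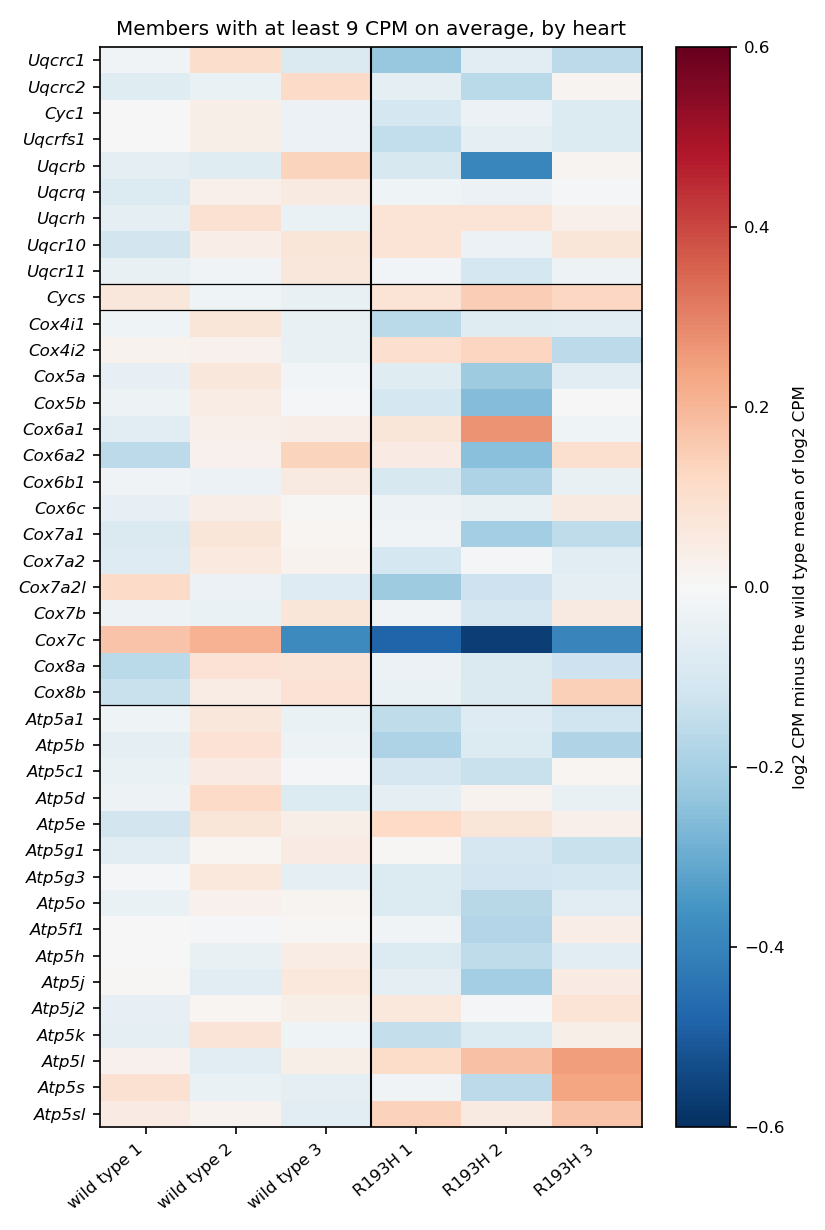
Log2 CPM of each member in each heart minus its wild type mean, for the 41 members with a mean of at least 9 CPM (blue lower, red higher). The R193H columns are mostly pale blue, Cox7c is low in wild type replicate 3 as well as in the R193H hearts, and Cycs, Atp5l and Atp5sl are red in all R193H hearts.

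The genes are scattered over 19 chromosomes, with 7 of them on chromosome 7, and their transcripts are short, from 360 to 3123 bases with a median of 659. In wild type hearts 30 of the 45 averaged at least 100 CPM and 5 averaged under 10 CPM. Per kb of transcript, the tested members ranged from 185 to 690 CPM in complex III, from 1.14 to 1403 CPM in complex IV and from 4.86 to 1700 CPM in complex V. The members at the low end include isoforms of other tissues and minor genes of a family, such as Cox6b2, Cox4i2 and Atp5g2. Cycs, Atp5l and Cox7c were low too, at 24.8, 40.1 and 60.3 CPM per kb in wild type hearts. For these genes near-identical loci held 53.1%, 65.7% and 32.0% of the summed counts, so their levels depend on how reads were counted.

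**Figure D3:**
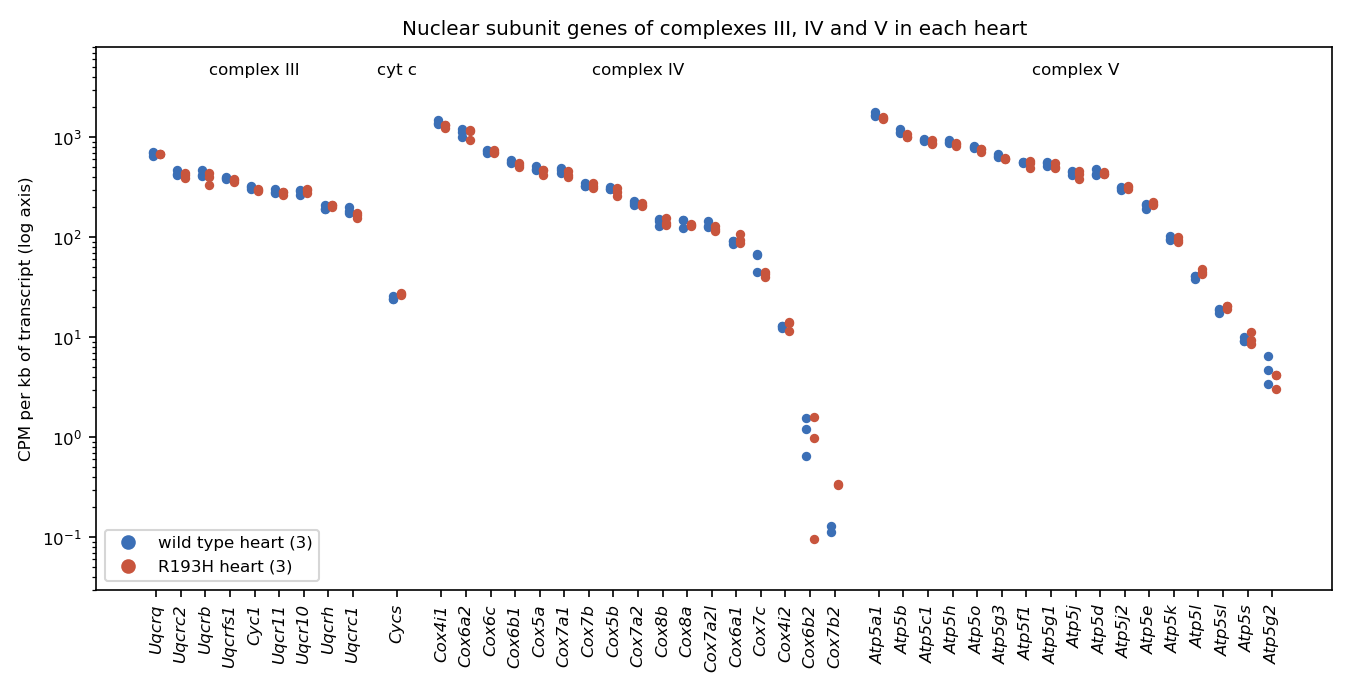
Level of each member in each of the 3 wild type (blue) and 3 R193H (red) hearts, in CPM per kb of transcript on a log axis, by complex and in order of level. The groups lie on top of each other for most members, a heart at 0 is not drawn, and Cox8c, at 0 in all hearts, is left out.

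Complex III had 7 of its 9 members lower, with a median log2 fold change of -0.067. Uqcrq, a small subunit that sits beside cytochrome b, had the highest level per kb of the complex, at 690 ± 34.7 CPM per kb against 679 ± 6.98 CPM per kb in the mutant hearts (SD, n = 3 each). It measured 263, 285 and 290.0 CPM in wild type and 274, 273 and 278 CPM in R193H hearts, all 3 of the latter inside the wild type range.

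Uqcrc1, core protein 1 on the matrix side (GRCm38 chromosome 9, 108936633 to 108949623), measured 301, 329 and 288 CPM in wild type and 261, 291 and 274 CPM in R193H hearts. Its log2 fold change was -0.15 (SE 0.086, 95% interval -0.35 to 0.040), and R193H replicate 2 overlapped the wild type range. Uqcrb, a subunit that takes part in ubiquinone binding (chromosome 13, 66900617 to 66905378), measured 222, 221 and 254 CPM in wild type and 217, 177 and 234 CPM in R193H hearts. Its log2 fold change was -0.15 (SE 0.11), and R193H replicate 2 alone stood far below the rest. The catalytic subunits Cyc1, which carries the heme of cytochrome c1, and Uqcrfs1, the Rieske iron-sulfur protein, stood at -0.076 and -0.095 with groups that did not overlap. Uqcrc2, core protein 2, and Uqcr11, the smallest subunit, stood at -0.067 and -0.052 with overlapping groups.

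The remaining members of complex III had higher means. Uqcrh, the hinge protein that helps cytochrome c to dock, measured 104.9, 116 and 106 CPM in wild type and 115, 115 and 111 CPM in R193H hearts (log2 fold change 0.063, SE 0.076). Uqcr10 measured 115, 127 and 130.4 CPM in wild type and 131, 121 and 130.4 CPM in R193H hearts (0.037, SE 0.082). Both genes overlapped between the groups. Adjusted p values in complex III ran from 0.892 for Uqcrc1 to 0.980 for Uqcrq.

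Cycs, the somatic cytochrome c gene (chromosome 6, 50562563 to 50566538), measured 81.2, 76.2 and 75.3 CPM in wild type and 82.0, 86.0 and 84.5 CPM in R193H hearts. All R193H hearts were above all wild type hearts, with a log2 fold change of 0.12 (SE 0.073, 95% interval -0.047 to 0.28, edgeR adjusted p = 0.900). Its level per kb, 24.8 ± 1.02 CPM in wild type hearts, was far under that of complex III, and near-identical loci held 53.1% of the counts of Cycs and those loci together. The main one, Gm10053 on chromosome 19, is 99.9% identical to the Cycs transcript over 946 bases. Summed with these loci, Cycs measured 175, 164 and 167 CPM in wild type and 182, 167 and 181 CPM in R193H hearts, so the groups overlapped and the log2 fold change was 0.066 (SE 0.077).

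In complex IV, 13 of 16 tested members had lower means, with a median log2 fold change of -0.094. Cox4i1, the common form of subunit 4, which binds adenine nucleotides and regulates the enzyme, was the highest of the complex per kb, at 1403 ± 62.6 and 1308 ± 47.8 CPM per kb. It measured 1026, 1099 and 1012 CPM in wild type and 933, 994 and 995 CPM in R193H hearts (chromosome 8, 120668222 to 120674207). The groups did not overlap, and the log2 fold change was -0.10 (SE 0.080, 95% interval -0.28 to 0.077). Its partner isoform Cox4i2, known from lung and from oxygen sensing, measured 9.51, 9.52 and 9.07 CPM in wild type and 10.03, 10.2 and 8.38 CPM in R193H hearts (0.030, SE 0.13). Of the counts of the pair, Cox4i1 made up 99.1% ± 0.0297 in wild type and 99.0% ± 0.121 in R193H hearts.

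Subunits 6a, 7a and 8 have forms of heart and skeletal muscle, Cox6a2, Cox7a1 and Cox8b, and forms of liver and most other tissues, Cox6a1, Cox7a2 and Cox8a. Cox6a2 measured 677, 768 and 828 CPM in wild type and 782, 634 and 808 CPM in R193H hearts (log2 fold change -0.031, SE 0.11). Cox6a1 measured 48.5, 52.0 and 52.2 CPM in wild type and 53.6, 61.4 and 50.1 CPM in R193H hearts (0.11, SE 0.092). R193H replicate 2 was the lowest heart for Cox6a2 and the highest for Cox6a1, and both genes overlapped between the groups. Cox6a2 took 93.7% ± 0.376 of the counts of the pair in wild type and 93.0% ± 1.59 in R193H hearts, with 91.2% in R193H replicate 2. Per kb it took 92.6% ± 0.437 and 91.7% ± 1.84.

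Cox7a1 measured 172, 192.9 and 185 CPM in wild type and 181, 159 and 165 CPM in R193H hearts (log2 fold change -0.13, SE 0.085). Cox7a2 measured 137, 151 and 147 CPM in wild type and 134, 144 and 138 CPM in R193H hearts (-0.062, SE 0.077). Each overlapped between the groups, with 2 of the 3 R193H hearts below all wild type hearts for Cox7a1 and 1 of 3 for Cox7a2. Cox7a1 took 55.9% ± 0.252 of the counts of the pair in wild type hearts. Its share in R193H hearts was 57.3%, 52.5% and 54.4%, with a mean of 54.7% ± 2.43. Per kb the share was 67.97% ± 0.223 and 66.9% ± 2.16.

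Cox8b measured 46.8, 52.9 and 54.6 CPM in wild type and 49.9, 48.3 and 56.7 CPM in R193H hearts (log2 fold change 0.0041, SE 0.094). Cox8a measured 68.8, 81.6 and 81.0 CPM in wild type and 75.1, 72.5 and 70.6 CPM in R193H hearts (-0.086, SE 0.087). Neither gene separated the groups. Cox8b took 40.03% ± 0.606 of the counts of the pair in wild type and 41.5% ± 2.67 in R193H hearts, with 44.6% in R193H replicate 3 and 39.93% and 39.96% in the others. Per kb the pair was close to even, with Cox8b at 50.5% ± 0.632 in wild type hearts.

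Subunit 6b has the common form Cox6b1 and the testis form Cox6b2. Cox6b1 measured 346, 343 and 365 CPM in wild type and 328, 309 and 340.1 CPM in R193H hearts, with no overlap (log2 fold change -0.11, SE 0.079). Cox6b2 was close to absent, at 0.568, 0.727 and 0.301 CPM in wild type and 0.0450, 0.457 and 0.745 CPM in R193H hearts. The depth does not resolve a difference for it, with a 95% interval of the log2 fold change from -1.97 to 1.299. The other testis forms were under the filter: Cox7b2 had 1, 1 and 0 counts in wild type and 4, 0 and 4 counts in R193H hearts, and Cox8c had 0 counts in all 6 hearts. A count of 0 allows up to 0.135 to 0.213 CPM at the scaled totals (3 counts, counting error only).

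In none of the 5 isoform pairs did the share of counts taken by the named form differ between the genotypes beyond the spread between hearts. The difference was -0.703 percentage points for Cox6a2, -1.13 for Cox7a1, 1.46 for Cox8b, -0.0847 for Cox4i1 and 0.0259 for Cox6b1. Single hearts set these values: without R193H replicate 2 the difference was 0.199 for Cox6a2 and -0.0202 for Cox7a1, and without R193H replicate 1 it was -2.43 for Cox7a1. Without R193H replicate 3 it was -0.0829 for Cox8b and -0.154 for Cox4i1, and without R193H replicate 1 it was -0.0395 for Cox4i1 and -0.0306 for Cox6b1. Two-sided exact permutation tests over the hearts gave p values from 0.4 to 0.8, and 0.8 for each pair after Benjamini-Hochberg adjustment over the 5. With 3 hearts against 3 such a test cannot go below 0.1.

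**Figure D4:**
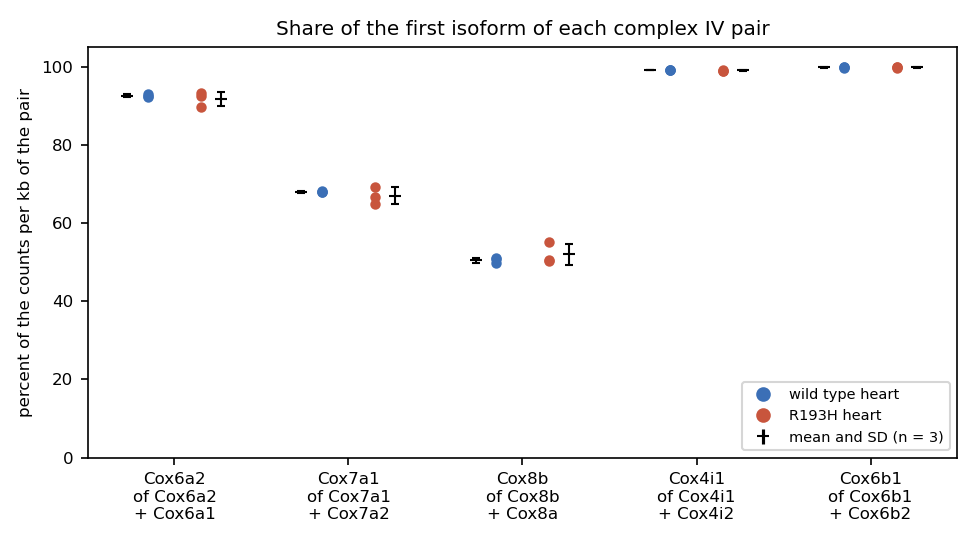
Share of the first-named isoform in the counts per kb of transcript of its pair, in percent, for each wild type (blue) and R193H (red) heart, with mean and SD (n = 3 each). The muscle form takes 89.7% to 93.1% of the subunit 6a pair and 49.8% to 69.3% of the 7a and 8 pairs, and the R193H hearts spread more widely than the wild type hearts.

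The muscle and liver forms of subunit 8, found at like levels per kb, have promoters of different makeup, and they are shown for that contrast. Each sequence runs from 250 bases before to 50 bases after the RefSeq start on GRCm38.p6, on the gene's own (minus) strand. Capitals mark E-boxes (CAGCTG) and the letters TATAAA in Cox8b, and ETS cores (CCGGAAG, here as its reverse complement) in Cox8a. TATAAA and the last E-box of Cox8b lie after the RefSeq start, not before it, and of the ETS cores of Cox8a the first spans the start and the last lies after it.
Cox8b, chr7:140900397-140900696: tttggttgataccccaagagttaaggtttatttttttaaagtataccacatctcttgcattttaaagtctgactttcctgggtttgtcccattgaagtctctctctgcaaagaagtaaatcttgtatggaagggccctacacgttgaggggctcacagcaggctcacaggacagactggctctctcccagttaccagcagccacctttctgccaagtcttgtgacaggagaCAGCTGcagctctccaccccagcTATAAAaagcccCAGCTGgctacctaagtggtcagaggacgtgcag
Cox8a, chr19:7217567-7217866: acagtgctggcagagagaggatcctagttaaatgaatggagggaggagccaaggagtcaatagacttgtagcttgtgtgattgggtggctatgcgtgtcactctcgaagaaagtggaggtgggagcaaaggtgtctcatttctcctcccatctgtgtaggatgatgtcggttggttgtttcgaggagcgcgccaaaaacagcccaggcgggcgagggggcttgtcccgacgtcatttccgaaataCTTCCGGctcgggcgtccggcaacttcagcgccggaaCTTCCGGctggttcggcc

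Of the 45 members, 35 had a promoter in the RefSeq table, which holds 27025 genes. Both strands were searched, and a match describes letters in this window, not binding. The core motif of NRF1 was in 8 members (22.9%, against 5.2% of all promoters), among them Uqcrc1, Cox6a1, Atp5c1 and Atp5o. The ETS core CCGGAAG, bound by the factor GABP, was in 10 (28.6% against 9.9%), and the estrogen-related receptor element AAGGTCA was in 4 (11.4% against 5.4%). The YY1 core AAGATGG was in 5 (14.3% against 7.3%), while the GC box GGGCGG was in 13 (37.1% against 38.2%). The E-box was in Cox8b and Atp5b only (5.7% against 18.3%), and TATAAA was in 3 members (8.6% against 15.7%). NRF1, ETS and ERR motifs are known from promoters of respiratory chain genes.

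Cox7c, which encodes a small membrane subunit (chromosome 13, 86044816 to 86046904), had the smallest p of all members. It measured 36.0, 37.0 and 24.5 CPM in wild type and 22.9, 21.6 and 24.3 CPM in R193H hearts. Its log2 fold change was -0.50 (SE 0.15, 95% interval -0.84 to -0.16, edgeR adjusted p = 0.722). The groups did not overlap, but wild type replicate 3 stood with the R193H hearts and not with the other 2 wild type hearts. Without wild type replicate 3 the adjusted p was 0.179.

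The coding sequence of Cox7c is repeated without a difference in the processed pseudogene Gm12338 (chromosome 11, 75599763 to 75599954), so a read that lies within it has equal matches at both loci. The sequence is shown because the result on Cox7c turns on it, and it was read from GENCODE M21 transcripts on GRCm38. It is 192 bases long, from start codon to stop codon.
Cox7c and Gm12338: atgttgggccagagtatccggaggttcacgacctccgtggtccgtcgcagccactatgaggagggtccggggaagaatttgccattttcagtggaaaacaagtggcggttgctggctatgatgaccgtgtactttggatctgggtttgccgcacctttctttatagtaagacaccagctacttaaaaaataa

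Gm12338 had 8.30, 7.94 and 14.9 CPM in wild type and 14.0, 13.4 and 14.4 CPM in R193H hearts. It was high in the hearts where Cox7c was low, wild type replicate 3 included. Near-identical loci held 18.7%, 17.7% and 37.8% of the summed counts in the wild type group and 38.0%, 38.2% and 37.5% in R193H hearts. Summed over these loci, Cox7c measured 44.3, 44.97 and 39.5 CPM in wild type and 37.0, 35.0 and 38.9 CPM in R193H hearts. The groups still did not overlap, and the log2 fold change was -0.22 (SE 0.086, edgeR adjusted p = 0.816). The sources used here do not give how reads that match both loci were counted, so the level of Cox7c alone is uncertain.

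Cox7a2l encodes a relative of subunit 7a known from work on supercomplexes of complexes III and IV (chromosome 17, 83501918 to 83517330). Its function in these hearts was not tested. It measured 155, 140.1 and 136 CPM in wild type and 124, 132 and 138 CPM in R193H hearts (log2 fold change -0.13, SE 0.084, edgeR adjusted p = 0.900), with R193H replicate 3 inside the wild type range. Its processed pseudogene Gm6969 (chromosome 12, 24638669 to 24639010) had 12, 609 and 755 counts in wild type and 1562, 709 and 1516 counts in R193H hearts. In CPM this was 0.851, 36.9 and 37.8 in wild type and 70.2, 32.4 and 70.6 in R193H hearts. Wild type replicate 1 was close to 0, R193H replicates 1 and 3 were the highest, and R193H replicate 2 stood with the other 2 wild type hearts.

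The coding sequence of Cox7a2l in the reference, which is that of C57BL/6J, and that of Gm6969 are shown because their difference bears on which reads either locus can take. Both are shown from base 153 of the coding sequence to the stop codon, since the bases before it are equal, and capitals mark the bases that differ. In the alignment, Gm6969 has 6 bases that Cox7a2l lacks, after base 213 counted from the start codon, and the substitutions T214A and C303T (Cox7a2l base, position, Gm6969 base), and 99.4% of the 336 aligned bases are equal.
Cox7a2l: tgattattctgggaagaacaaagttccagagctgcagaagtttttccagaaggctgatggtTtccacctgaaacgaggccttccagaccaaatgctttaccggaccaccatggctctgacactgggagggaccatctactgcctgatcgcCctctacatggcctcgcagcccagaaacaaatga
Gm6969: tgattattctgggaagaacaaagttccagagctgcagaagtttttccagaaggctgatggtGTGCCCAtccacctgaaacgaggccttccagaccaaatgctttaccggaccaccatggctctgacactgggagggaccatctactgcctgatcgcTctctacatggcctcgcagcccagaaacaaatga

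As background, mouse strains are known to differ in Cox7a2l, with a shorter protein in C57BL/6 than in many other strains. Which form these hearts carry cannot be read from counts per gene and was not tested. Summed with Gm6969, Cox7a2l measured 156, 177 and 174 CPM in wild type and 194, 164 and 209 CPM in R193H hearts. The log2 fold change then turned to 0.16 (SE 0.10, edgeR adjusted p = 0.900), so the direction for Cox7a2l depends on the counting of this locus.

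**Figure D5:**
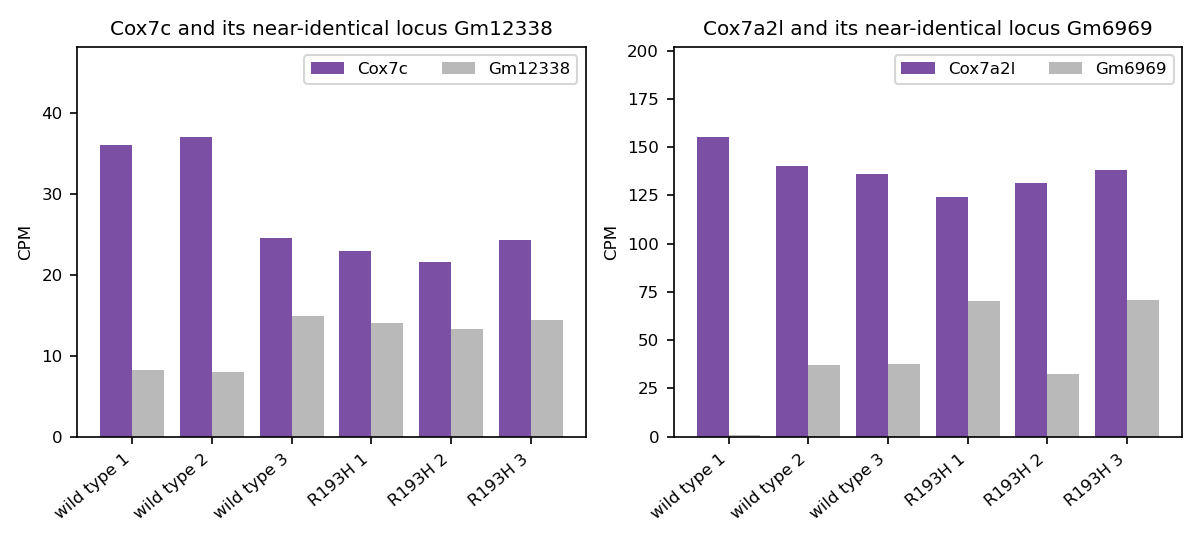
Level in CPM of Cox7c with Gm12338 (left) and of Cox7a2l with Gm6969 (right) in each heart, 1 bar per locus. Gm12338 is at 13.4 to 14.9 CPM where Cox7c is at 21.6 to 24.5 CPM, and Gm6969 runs from 0.851 CPM in wild type replicate 1 to 70.6 CPM in R193H replicate 3.

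In all, 17 members had a near-identical locus elsewhere (at least 95% identity over at least 150 bases), 37 loci in total, of which 23 had counts beside 14 members. These loci held 65.7% of the summed counts of Atp5l, 39.3% of Atp5g2, 19.6% of Atp5g1, 11.1% of Atp5h and 9.91% of Cox5b. Summing them left 31 of 43 members with a lower mean, and Cox7a2l was the only 1 of the members described heart by heart to change direction.

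The other subunits of complex IV differed little. Cox5a and Cox5b, which surround the catalytic core on the matrix side, both stood at -0.12, with groups that did not overlap for Cox5a only. Cox5b was lowest in R193H replicate 2, at 223 CPM against 261 to 275 CPM in wild type hearts. Cox6c and Cox7b, membrane subunits of the common form, stood at -0.0063 and -0.023 with overlapping groups. Adjusted p values in complex IV ran from 0.722 for Cox7c to 0.996 for Cox8b.

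Complex V had 12 of 17 members lower, with a median log2 fold change of -0.068. In the F1 head 4 of 5 had lower means (median -0.072), in the peripheral stalk 4 of 4 (-0.084) and in the c ring 3 of 3 (-0.10). In the rest of the membrane sector 1 of 3 had a lower mean (0.044), and 1 of these 3, Atp5l, had 65.7% of its summed counts at near-identical loci. Usmg5 and Mp68, subunits of that sector too but outside the rule, had lower means (-0.025 and -0.040). Whether the sectors differ from each other was not tested.

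Atp5a1 and Atp5b encode the alpha and beta subunits, which alternate in the head and form the catalytic sites on beta. Atp5a1 had the highest level of all members, per kb at 1700 ± 68.7 CPM in wild type hearts and 1567 ± 41.5 CPM in mutant hearts. It measured 4123, 4394 and 4082 CPM in wild type and 3774, 3979 and 3865 CPM in R193H hearts (log2 fold change -0.12, SE 0.079, 95% interval -0.29 to 0.060). Atp5b (chromosome 10, 128083273 to 128090391) measured 2128, 2341 and 2157 CPM in wild type and 1939, 2082 and 1945 CPM in R193H hearts (-0.15, SE 0.082, 95% interval -0.34 to 0.032, edgeR adjusted p = 0.882). For both genes every R193H heart was below every wild type heart and wild type replicate 2 was the highest. The subunits of the central rotor, gamma (Atp5c1), delta (Atp5d) and epsilon (Atp5e), stood at -0.072, -0.030 and 0.072, all with overlapping groups.

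In the peripheral stalk, which holds the head still against rotation, Atp5o and Atp5h stood at -0.10 and -0.099 with no overlap, and Atp5f1 and Atp5j at -0.050 and -0.068 with overlap. R193H replicate 2 was the lowest heart for all 4. The c ring, which turns with the passing protons, is built from 1 protein encoded by Atp5g1, Atp5g2 and Atp5g3. Atp5g3 took 58.9% ± 1.61 of their summed counts in the wild type group and 58.5% ± 1.05 in R193H hearts, Atp5g1 took 40.8% ± 1.54 and 41.3% ± 1.03, and Atp5g2 took 0.271% ± 0.0885 and 0.224% ± 0.0346. These shares overlapped between the groups. Per kb the wild type shares were 54.4% ± 1.67 for Atp5g3, 45.2% ± 1.55 for Atp5g1 and 0.405% ± 0.131 for Atp5g2. Atp5g2 averaged 2.14 CPM in wild type hearts and stood at -0.36 (SE 0.30).

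Atp5l, which encodes subunit g of the membrane sector, taking part in the pairing of ATP synthases (chromosome 9, 44912557 to 44920742), measured 22.2, 20.9 and 22.3 CPM in wild type and 23.5, 24.6 and 25.9 CPM in R193H hearts. All R193H hearts were higher, with a log2 fold change of 0.18 (SE 0.087, 95% interval -0.016 to 0.37, edgeR adjusted p = 0.866). Summed with its near-identical loci, it measured 63.0, 63.0 and 70.9 CPM in wild type and 67.3, 66.8 and 76.1 CPM in R193H hearts, with overlap and a log2 fold change of 0.094 (SE 0.088). Its neighbours in the membrane sector, subunits e (Atp5k) and f (Atp5j2), stood at -0.061 and 0.044 with overlapping groups. Atp5sl, which encodes an assembly factor of complex I and no ATP synthase subunit, measured 45.6, 44.7 and 42.0 CPM in wild type and 48.6, 45.7 and 49.6 CPM in R193H hearts, with no overlap (0.12, SE 0.078). Adjusted p values in complex V ran from 0.866 for Atp5l to 0.984 for Atp5s, and the latter stood at 0.030.

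Genes listed for the assembly and regulation of these complexes gave no common direction, and 0 genes of the lists passed the test over all genes. Among the listed genes, Ndufa4 of complex IV and Usmg5 and Mp68 of complex V are themselves subunits, with symbols outside the rule. They stood at -0.086, -0.025 and -0.040. Complex III assembly genes had 2 of 6 lower means (median log2 fold change 0.030), with Ttc19 at -0.14 and Lyrm7 at 0.25. Complex IV assembly genes had 10 lower and 14 higher means of 24 tested (0.042). Cox10, which makes heme for the enzyme, stood at -0.21, while Coa3 and Coa4 stood at 0.18 and 0.31 with groups that did not overlap. They were the only 2 of the 24 without overlap, both higher, beside 6.02% of all genes on that side. Complex V assembly and regulation genes had 5 of 7 lower means (-0.040), with Atpaf1, which helps to build F1, at -0.13 and Tmem70, which helps to build the c ring, at 0.11. In complex II, the nuclear-encoded entry point for electrons from succinate, 4 of 8 genes had lower means (0.021), and its flavoprotein Sdha stood at -0.17 with no overlap. Sdhaf4 stood at 0.14 with no overlap on the higher side. Thus 1 of 8 lay apart in each direction, beside 5.8% of all genes lower and 6.02% higher.

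The subunits of the same complexes encoded by mitochondrial DNA had lower means in R193H hearts for 6 of 6 genes. Their median was -0.28 on the log2 scale, with 3 of 6 at an unadjusted edgeR p under 0.05, beside the 5.73% of all genes. All are encoded by the same mitochondrial DNA, so they are not independent cases. COX3, a core subunit of complex IV, measured 188, 171 and 136 CPM in wild type and 121, 111 and 119.9 CPM in R193H hearts (-0.49, SE 0.11, edgeR adjusted p = 0.609). ATP6, the channel subunit of complex V through which protons reach the c ring, measured 162, 149 and 135 CPM in wild type and 113, 98.4 and 134 CPM in R193H hearts (-0.37, SE 0.12, edgeR adjusted p = 0.722). The other 4, CYTB, COX1, COX2 and ATP8, stood between -0.29 and -0.14. Every R193H heart was below every wild type heart for COX3, ATP6, CYTB and COX1, beside 5.8% of all genes. The margin was narrow for ATP6, with 134.6 CPM in wild type replicate 3 against 133.7 CPM in R193H replicate 3. It was narrow for COX1 too, with 171973 against 171082 CPM in the same hearts. All 6 also had lower means with library totals (median -0.16) and without R193H replicate 2 (median -0.18), but COX1 and COX2 then stood close to 0, at -0.027 and -0.017 with library totals and at -0.043 and -0.049 without that heart. COX1, COX2 and COX3 together took 16.7%, 17.1% and 16.7% of all counts in wild type and 17.2%, 15.1% and 17.1% in R193H hearts, so only R193H replicate 2 was below the wild type range. Nearly all of this share was COX1, so the lower level of COX3 cannot show in it. In CPM, not scaled for length, COX1 ran from 134899 to 179893, CYTB from 39925 to 59105, and COX2, COX3, ATP6 and ATP8 from 44.2 to 231. Nuclear copies of mitochondrial DNA are known in the mouse genome, and the sources used here do not give how reads that match them were counted. The levels and fold changes of COX2, COX3, ATP6 and ATP8, all far below COX1, are therefore uncertain. All mitochondrially encoded genes together had 36.8% ± 0.0715 of the wild type counts and 33.8% ± 2.52 of the mutant counts (SD, n = 3 each).

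Among regulators of mitochondrial genes, 5 of 8 tested had lower means, with a median log2 fold change of -0.091. With library totals 2 of 8 had (median 0.032). Without R193H replicate 2, 6 of 8 had (median -0.037), and the lowest log2 fold change among the 8 was then -0.21. Ppargc1a, the coactivator that drives mitochondrial biogenesis together with NRF1 and the estrogen-related receptors, measured 118, 128 and 134 CPM in wild type and 103, 77.2 and 115 CPM in R193H hearts. All R193H hearts were below all wild type hearts (-0.36, SE 0.14, 95% interval -0.67 to -0.056, edgeR adjusted p = 0.793), and R193H replicate 2 was the lowest. Ppargc1a was the only 1 of the 8 regulators without overlap, beside 5.8% of all genes on the lower side. Esrrb, an estrogen-related receptor, stood at -0.14 (SE 0.097), and its relative Esrra at 0.0088 (SE 0.079). Nrf1 was under the filter on low counts. The part of Ppargc1a levels in the levels of the members was not tested.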

How the data were processed

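Total RNA of heart was extracted with Trizol and sequenced with standard Illumina libraries, per the labels' protocols. The authors deposited 1 table of read counts per gene symbol for 6 hearts, not normalized, after alignment with HISAT2 2.0.4 to GRCm38, per the submitters' processing notes. Not given in the sources used here are the counting program, annotation, strand setting and handling of multiply matching reads. Columns were matched to samples by title and groups taken from the genotype label. The labels number no replicates, so hearts were numbered in the order of deposition, which pairs none of them.

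Counts were analysed in R 4.3.3 with edgeR 4.0.16: filterByExpr kept 14370 genes and removed 30422, library totals were scaled with TMM, and genotypes were compared with the quasi-likelihood test (robust setting, genotype as the only term). Adjusted p values are Benjamini-Hochberg values across every tested gene, and 0.05 was the threshold. The biological coefficient of variation was 15.8%. SEs are the log2 fold change over the root of the F statistic, and 95% intervals use the t distribution with the fit's degrees of freedom. Lengths, coordinates and coding sequences came from GENCODE M21 on GRCm38, with 1 principal protein-coding transcript per member, and promoters from RefSeq on GRCm38.p6. Near-identical loci were found with blastn 2.17.0 between members and all GENCODE transcripts, over 10000 bases from the member. Some listed genes carry older symbols in the table and were matched through RefSeq synonyms.

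Values in every heart are given for the member of each complex with the highest level per kb, the members with the smallest p in each direction, both members of each isoform pair, and any member under the filter with a count. The members and lists were chosen with earlier results of these data known. The fit was tested on simulated data with known changes. Alternatives were scaling by library totals, by the upper quartile or by DESeq2 size factors, a fit without mitochondrially encoded genes, no filter or at least 1 CPM in 3 hearts, DESeq2 1.42.0, limma-voom (limma 3.58.1), a non-robust fit and each heart left out. The sum with near-identical loci was chosen after seeing the data.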

Additional observations from a re-analysis of the deposited data

How the results depend on the processing

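The count of 0 members called held under every alternative run, with the smallest adjusted p of a member at 0.179 (Cox7c, without wild type replicate 3). Over all genes edgeR called 1, against 0 with mitochondrially encoded genes left out, 38 without a filter, 43 with DESeq2 and 3 to 21 with 1 heart left out. Under library totals the members with a lower mean numbered 8 and the median of all 43 was 0.054. Of the 24 members that turned to the higher side, 7 are described heart by heart: Uqcrq (0.10), Cox4i1 (0.027), Atp5a1 (0.012), Cox6a2 (0.089), Cox7a2 (0.067), Cox8a (0.042) and Cox6b1 (0.017). With 1 heart left out, the members with a lower mean numbered 29 to 34 and their median ran from -0.094 to -0.050. The sign then turned for 11 members, of which Cox6c, Cox7b, Atp5d, Atp5f1 and Atp5s are not described heart by heart. For the other 6, log2 fold changes ran from -0.064 to 0.0052 for Uqcrq, -0.018 to 0.076 for Uqcr10, -0.021 to 0.12 for Cox4i2, -0.11 to 0.072 for Cox6a2, -0.061 to 0.052 for Cox8b and -1.04 to 0.19 for Cox6b2. Cox7a2l turned to 0.16 with its copies summed, an alternative chosen after seeing the data. In isoform shares, leaving out hearts gave differences of -1.30 to 0.199 points for Cox6a2, -2.43 to -0.0202 for Cox7a1, -0.0829 to 2.24 for Cox8b and -0.0306 to 0.0719 for Cox6b1. Of the alternative values, 510 kept their call and direction or stayed within the limit allowed for them. That limit was a set fold for counts and the spread between hearts for medians. For single genes only a change of call or direction was counted, so a gene could move in size and still be among the 510. Another 21 turned their direction and 18 moved beyond the limit, 6 of these across 0. The cause was not tested. No paired analysis was possible because the labels give no replicate numbers.

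Members under 3 CPM, Atp5g2, Cox6b2 and Cox7b2, rest on few counts.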
